A study of Homo sapiens with 12 samples.

Results

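The 10 genes described here encode MYC, its 2 paralogues, their partner MAX and the other proteins that pair with MAX. They were chosen by name: MYC, MYCN, MYCL, MAX, MXD1, MXD3, MXD4, MXI1, MNT and MGA. All 10 were found among the 34318 genes that had a value in the deposited table, and all 10 passed the filter on low counts in both experiments, so no member was lost.

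MYC, MYCN and MYCL are basic helix-loop-helix leucine zipper transcription factors that bind DNA only as a pair with MAX, most tightly at the hexamer CACGTG, called an E-box, and raise transcription from many growth and ribosome genes. MXD1, MXD3, MXD4, MXI1 and MNT also pair with MAX, bind the same hexamer and recruit the SIN3 and histone deacetylase corepressors, so they compete with MYC for MAX and for DNA. MGA is a much larger MAX partner that also carries a T-box DNA-binding domain and works in a Polycomb repressor complex named PRC1.6. MYC messenger RNA and protein are short-lived in most cells, and MYC is known to stimulate RNA polymerase III (Pol III), the enzyme that makes transfer RNA and 5S ribosomal RNA.

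The study measured messenger RNA of HEK293T cells in 12 libraries. HEK293T is an established human embryonic kidney line that carries adenoviral E1 genes and the SV40 large T antigen, and these were present in all 4 groups, controls included. In the first experiment 3 libraries came from cells transfected with the control siRNA siControl and 3 from cells transfected with siPOLR3A, an siRNA against the largest Pol III subunit, each collected after 2 days. In the second, 3 libraries came from cells kept for 4 hours in 0.1% DMSO and 3 from cells kept for 4 hours with 25 µM ML60218, a small-molecule Pol III inhibitor. The study's title concerns Pol III at protein-coding promoters, and each comparison asks how messenger RNA differed when Pol III was depleted or inhibited. The agent, the time and the control all differ between the experiments, and their parts in any difference cannot be told apart. All groups are treated here as 1 cell line. The labels do not say that the replicates were separate cultures, so the p-values measure only the spread between these libraries.

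The libraries held between 37008325 and 49479476 estimated reads, of which 91.0% to 91.6% fell in transcripts that could be assigned to a gene. POLR3A itself was 90.8 ± 3.56 CPM in siControl and 17.6 ± 2.65 CPM in siPOLR3A (SD, n = 3 each; CPM is a read count scaled to a common library size), a log2 fold change of -2.36. With ML60218 POLR3A fell by 0.38 on the log2 scale. The libraries are labelled kidney and epithelial: KRT18 reached 24.5 to 36.7 TPM and PAX2 3.36 to 5.19 TPM (TPM is reads per length, scaled to a fixed total), whereas 6 of the 12 epithelial and kidney markers, KRT19, PAX8, CDH16, AQP1, UMOD and SLC12A1, stayed under 0.5 TPM in every library. Of 12 markers of other cells, 7 stayed under 0.5 TPM in every library, including PTPRC and CD3E, while the neurofilament genes NEFL and NEFM reached 48.8 to 82.8 and 32.7 to 102.0 TPM. COL1A1 reached 18.2 to 28.1 TPM, ACTA2 4.07 to 12.9 and CD68 1.11 to 4.54. The summed level of those 12 markers of other cells was 189 to 214 TPM in siControl, 115 to 121 in siPOLR3A, 148 to 156 in DMSO and 170 to 189 in ML60218. That of the 12 epithelial and kidney markers was 39.1 to 43.4, 44.1 to 47.0, 45.4 to 46.3 and 47.9 to 51.5 TPM in the same order. The part of either sum in the results below was not tested. ML60218 replicates 1 and 3 differed more than any other pair of replicates.

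The sequences that help to read the results are given first. Among full-length MAX messages the results turn on a pair of protein-coding transcripts, MAX-205 and MAX-204, which differ by 1 coding exon. It is exon 2 of the 5 exons of MAX-205, at chr14:65101546-65101572 on the minus strand of GRCh38. It starts at coding base 37, adds 9 codons upstream of the helix-loop-helix region, and its removal takes the coding sequence from 480 to 453 bases (160 to 151 codons). The exon is printed 5′ to 3′ from the GENCODE 29 transcript, and the capitals mark the bases that MAX-205 has and MAX-204 lacks.
MAX-205 exon 2: GAAGAGCAACCGAGGTTTCAATCTGCG

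MXI1 has alternative first exons, and its transcripts MXI1-202 and MXI1-201, the highest of those matched to the annotation, therefore start their proteins differently. They share 5 of the 6 coding exons and have 295 and 228 codons. The first 30 coding bases of each are shown because the balance between them is described below, at chr10:110207809-110207838 and chr10:110226211-110226240 on the plus strand of GRCh38. The capitals mark the start codon.
MXI1-202: ATGggcaaacgcgggcggccgcgcaaggag
MXI1-201: ATGgagcgggtgaagatgatcaacgtgcag

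RefSeq promoter windows (GRCh38.p14, from 250 bases before to 50 bases after a gene's start, both strands searched) were available for 9 of the 10 members. The palindromic hexamer CACGTG occurred in the windows of 2 of them, MXD4 and MNT, and in 7.26% of all 35116 windows of that length. Counted per gene, 8.77% of 27305 genes held it in any of their windows. Both matches lie upstream of the gene and overlap no annotated exon: they begin 238 bases before the start of MXD4, at chr4:2262330-2262359, and 193 bases before that of MNT, at chr17:2401236-2401265, each on the minus strand. Of the textbook MYC-induced genes with a window, 18 of 32 (56.2%) held the hexamer. A window of SLC7A5, an amino acid transporter gene, at chr16:87869620-87869649 on the minus strand, and one of NME1, a nucleoside diphosphate kinase gene, at chr17:51153579-51153608 on the plus strand within its first exon, are printed beside the members as examples of such genes. The capitals mark the hexamer, and a match describes these letters only, not binding.
MXD4: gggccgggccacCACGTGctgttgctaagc
MNT: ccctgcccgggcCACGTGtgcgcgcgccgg
SLC7A5: ggccggacgacgCACGTGctccgagctggg
NME1: caagtgctgcgaacCACGTGggtcccgggc

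The network in these cells was carried by MYC and MAX. MYC averaged 117.9 ± 3.14 TPM in siControl and 71.6 ± 1.57 TPM in DMSO, and MAX 96.3 ± 8.52 and 121.1 ± 9.86 TPM (SD, n = 3). MYC was the highest of the 10 genes in siControl, siPOLR3A and ML60218, and MAX was the highest in DMSO. In siControl, siPOLR3A and DMSO the libraries of MYC and MAX did not overlap, but in ML60218 they did, at 103.1 to 162.3 TPM for MYC and 105.0 to 122.7 TPM for MAX. Between 34.2% and 42.7% of the mean MAX TPM of a group belonged to MAX-209, a retained-intron transcript of 327 bases in which few reads weigh heavily per length. Its coding transcripts MAX-204 and MAX-205 averaged 22.3 and 20.4 TPM in siControl.

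MYCL and MYCN were minor members of the MYC family here. MYCL, first found in lung cancer, averaged 4.61 to 5.82 TPM over the 4 groups. MYCN, the paralogue of neural and embryonic tissue, averaged 0.885 to 1.82 TPM and was the lowest of the 10 genes in every group. MYC made up 92.1% to 95.8% of the summed TPM of the 3 paralogues in every library.

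Among the MAX partners that repress, MXD4 was the highest in every group by its mean over matched transcripts, at 21.9, 28.7, 29.4 and 26.9 TPM in siControl, siPOLR3A, DMSO and ML60218. MNT, the broadly expressed repressor, followed at 19.6, 19.9, 20.5 and 25.5 TPM, and its libraries overlapped those of MXD4 in ML60218 but not in the other groups. Both sums include noncoding transcripts. In siControl the coding MXD4-201 and MNT-201 averaged 12.5 and 7.54 TPM, and the retained-intron MXD4-203 and MNT-209 3.91 and 6.27 TPM. The coding MXI1-202 averaged 9.43 TPM there, above MNT-201, so the order of these genes does not carry over to coding transcripts. MXD3, known from cycling cells, averaged 11.9 to 14.97 TPM and MXI1 11.7 to 14.2 TPM. The level of MXI1 leaves out most of the reads at its locus, which lay in unmatched transcripts, so its place below MXD4 and MNT holds for matched transcripts only. These neighbours in the order overlapped in siControl and in ML60218. MXD1, typical of differentiating cells, averaged 4.77 to 5.99 TPM and overlapped MYCL in siPOLR3A, DMSO and ML60218. MGA averaged 3.301 to 4.94 TPM, and its libraries overlapped those of MXD1 in siControl and those of MXD1 and MYCL in ML60218.

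**Figure D1:**
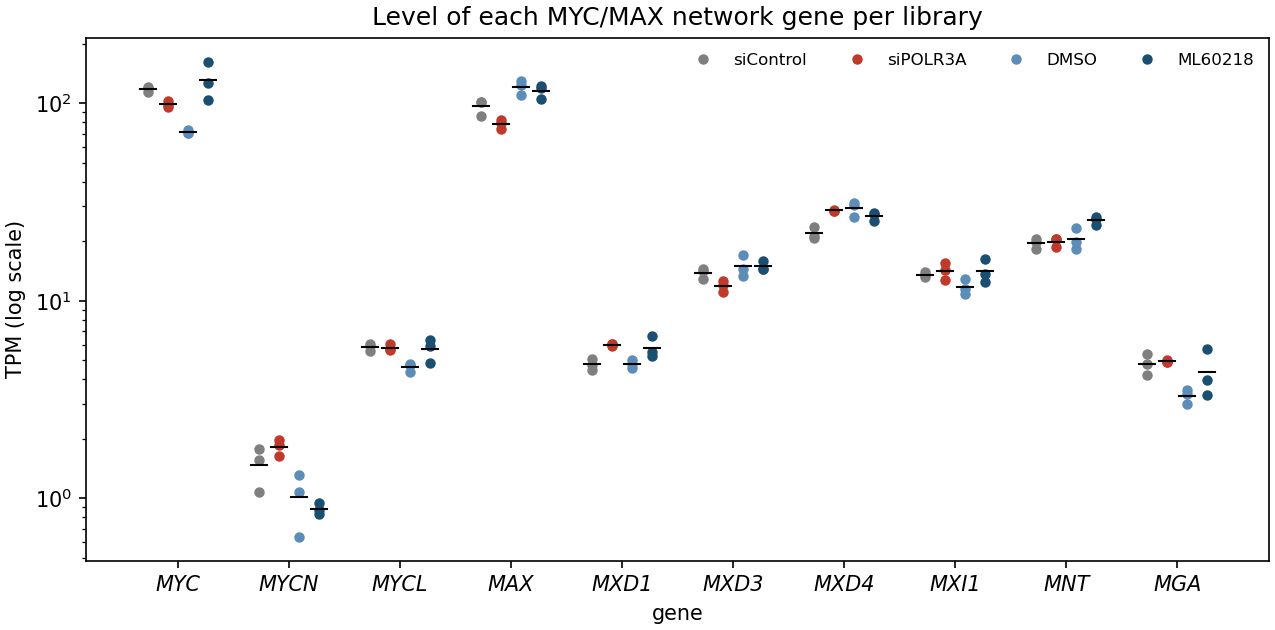
TPM of each network gene on a log scale, one point per library coloured by group, with a black line at the mean of 3 libraries. MYC and MAX lie at 70.7 TPM or above in every library, the repressors MXD4 and MNT at 19.6 to 29.4 TPM by their means, and MYCN at 0.885 to 1.82 TPM by its group means.

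The summed TPM of the MYC paralogues relative to that of the 5 repressors MXD1, MXD3, MXD4, MXI1 and MNT was 1.73, 1.601 and 1.77 in the siControl libraries and 1.27, 1.40 and 1.29 in the siPOLR3A libraries. It was 0.987, 0.921 and 0.942 in DMSO and 1.27, 1.599 and 1.82 in ML60218. The ratio was thus lower in every siPOLR3A library than in any siControl library, and higher in every ML60218 library than in any DMSO library. These ratios are of RNA only, and they are a description of the members chosen, without a test. Their sums take in every matched transcript, retained-intron and other noncoding ones included, and leave out most reads at MXI1. They are therefore not a balance of coding messages.

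After POLR3A siRNA, MYC and MAX messenger RNA differed by -16.3% and -14.3%, and MXD1 and MXD4 by 25.4% and 20.4%. The remaining members differed less or did not pass the test. Of the members, 6 of the 10 members passed an adjusted p of 0.05 (edgeR quasi-likelihood test, Benjamini-Hochberg over all genes), against 56.6% of the 15404 genes tested, so the share of members called was near the background. Of these 6, 3 were higher and 3 lower (27.4% and 29.2% of all genes). The libraries of 5 members did not overlap between the groups, against 63.4% of all genes. The median size of the log2 fold change was 0.20 over the members and 0.23 over all genes.

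MYC was at 169.7, 164.5 and 162.2 CPM in the siControl libraries and at 133.6, 143.6 and 138.3 CPM in the siPOLR3A libraries. Every siPOLR3A library lay below every siControl library. MYC fell by 0.26 on the log2 scale (SE 0.0304, adjusted p = 5.96e-06), or 16.3%. With all 12 libraries in one fit, which shares the wider MYC spread of the ML60218 libraries, the change was -0.25 and the adjusted p 0.0953. In bulk RNA, fewer cells that make a message and less of it per cell cannot be told apart.

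MAX, the obligate partner, was at 71.1, 74.8 and 76.4 CPM in siControl and 62.5, 62.8 and 65.3 CPM in siPOLR3A. The groups did not overlap, and MAX fell by 0.22 on the log2 scale (SE 0.0344, adjusted p = 7.56e-05). It kept this direction and call under all 18 alternatives. MYCL differed by -0.04 (adjusted p = 0.595) and MYCN by 0.33 (adjusted p = 0.105). MYCN ranged from 1.64 to 2.12 CPM in siControl and from 2.02 to 2.65 CPM in siPOLR3A, and it lies opposite an antisense gene, MYCNOS, whose reads could be mixed with its own because the strand setting of the counting is not given.

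MXD1 was at 18.8, 18.5 and 18.7 CPM in siControl and at 23.6, 23.9 and 22.8 CPM in siPOLR3A. All siPOLR3A libraries were higher, and MXD1 rose by 0.33 on the log2 scale (SE 0.0494, adjusted p = 6.12e-05). MXD4 was at 37.9, 41.3 and 38.0 CPM in siControl and at 46.6, 46.3 and 48.2 CPM in siPOLR3A. It rose by 0.27 (SE 0.0405, adjusted p = 5.99e-05) with no overlap. Both calls held under all 18 alternatives. MXD1 shares exonic bases with SNRNP27 on the same strand, a gene with a higher level than its own, so reads of the shared part may be divided uncertainly.

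MXD3 and MNT passed the test by little. MXD3 was 9.53 ± 0.370 CPM in siControl and 10.7 ± 0.382 CPM in siPOLR3A, a log2 fold change of 0.17 (adjusted p = 0.0414), but the direction turned to -0.25 when isoform lengths entered as an offset and to -0.21 on log2 TPM. The MXD3 call was lost in 7 more of the 18 alternatives, DESeq2 among them (adjusted p = 0.206). MXD3 shares exonic bases with RAB24 on the same strand and PRELID1 on the other, so the reads of these genes may be divided uncertainly. MNT was 40.7 ± 2.30 CPM in siControl and 37.6 ± 0.559 CPM in siPOLR3A, a log2 fold change of -0.11 (adjusted p = 0.0389), with overlapping libraries. The MNT call was lost in 11 of 18 alternatives and its sign turned to 0.02 on log2 TPM.

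MXI1 and MGA were not called, at -0.09 (adjusted p = 0.437) and -0.10 (adjusted p = 0.0931). For both, many reads at the locus lay in transcripts that the annotation used here does not name: the matched transcripts held 33.9% to 45.5% of the reads of MXI1 and 32.0% to 54.6% of those of MGA. When unmatched transcripts listed between matched ones of the same gene were added, 28 for MXI1 and 5 for MGA, MXI1 fell by 0.21 in siPOLR3A (adjusted p = 7.2e-06) and MGA differed by -0.32 (adjusted p = 0.106).

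**Figure D2:**
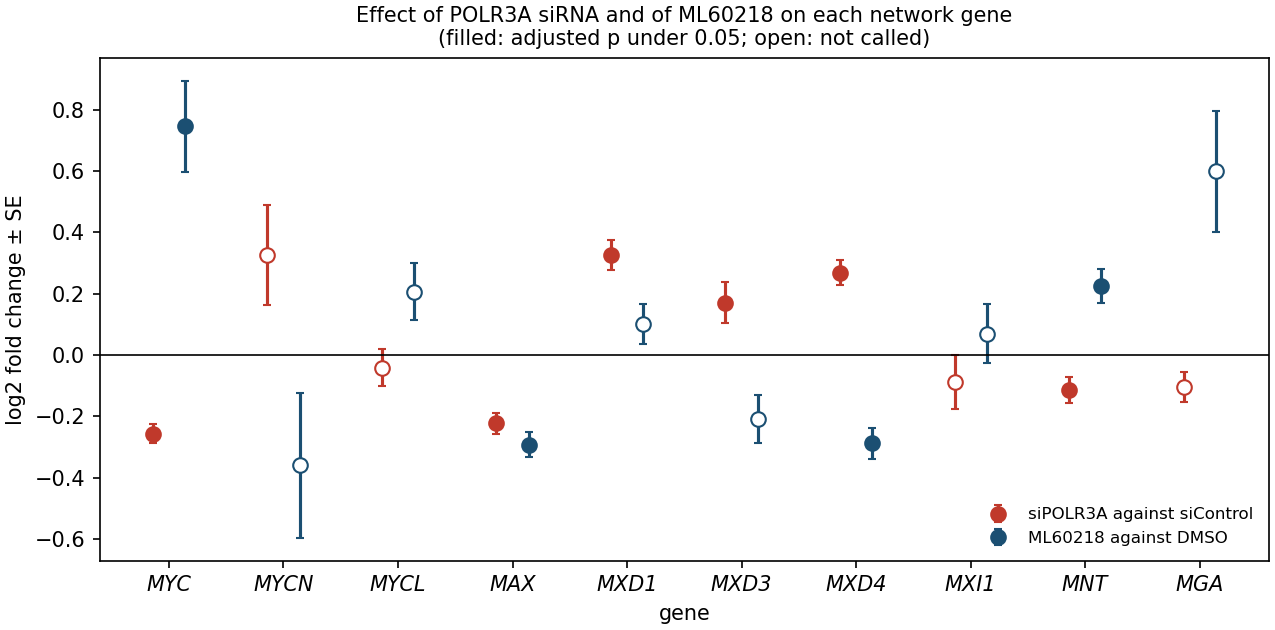
Log2 fold change with its SE for each network gene after POLR3A siRNA (red) and with ML60218 (blue), 3 libraries against 3 in each. Filled points passed an adjusted p of 0.05: MYC, MXD4 and MNT have filled points on opposite sides of 0, and MAX on the same side. The MNT call after the siRNA was lost in 11 of 18 alternatives.

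With ML60218 MYC was 1.68-fold higher, the largest difference among the 10 genes, MNT was higher, and MAX and MXD4 differed by -18.3% and -18.1%. These 4 of 10 members passed the test, 2 higher and 2 lower, against 39.0% of the 15461 genes tested (18.1% higher and 20.9% lower), again near the background. The libraries of 6 members did not overlap, against 51.9% of all genes. The median size of the log2 fold change was 0.26 over the members and 0.17 over all genes.

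MYC was at 99.0, 97.3 and 97.8 CPM in the DMSO libraries and at 136.5, 156.7 and 198.7 CPM in the ML60218 libraries. The controls lay close together, whereas the treated libraries were spread widely, all above the controls and with replicate 3 the highest. MYC rose by 0.74 on the log2 scale (SE 0.149, adjusted p = 0.0168). Without ML60218 replicate 3 it was 0.58 (adjusted p = 0.000416). Leaving out any 1 DMSO library kept the size at 0.74 to 0.75 but ended the call (adjusted p = 0.0579 to 0.0624).

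MAX went the other way, at 105.9, 108.2 and 100.9 CPM in DMSO and 85.2, 88.8 and 83.3 CPM in ML60218. The groups did not overlap and MAX fell by 0.29 (SE 0.0402, adjusted p = 0.000644). On log2 TPM, where the short MAX-209 weighs most, the difference was -0.07 (adjusted p = 0.539). MYCL at 0.21 (adjusted p = 0.106) and MYCN at -0.36 (adjusted p = 0.262) were not called, and MYCN stayed at or below 1.63 CPM in these 6 libraries.

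MXD4 was at 48.7, 48.3 and 46.7 CPM in DMSO and at 41.7, 38.3 and 37.7 CPM in ML60218. Every treated library was lower, and MXD4 fell by 0.29 (SE 0.0491, adjusted p = 0.00169), a call lost on log2 TPM (-0.13, adjusted p = 0.257). MNT was at 36.1, 38.2 and 41.2 CPM in DMSO and at 45.2, 43.4 and 46.2 CPM in ML60218. It rose by 0.22 (SE 0.0550, adjusted p = 0.0101) with no overlap, a call lost with the isoform-length offset (0.17, adjusted p = 0.243). MXD4 and MNT, the repressors with the hexamer in their promoter windows, thus moved in opposite directions.

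**Figure D3:**
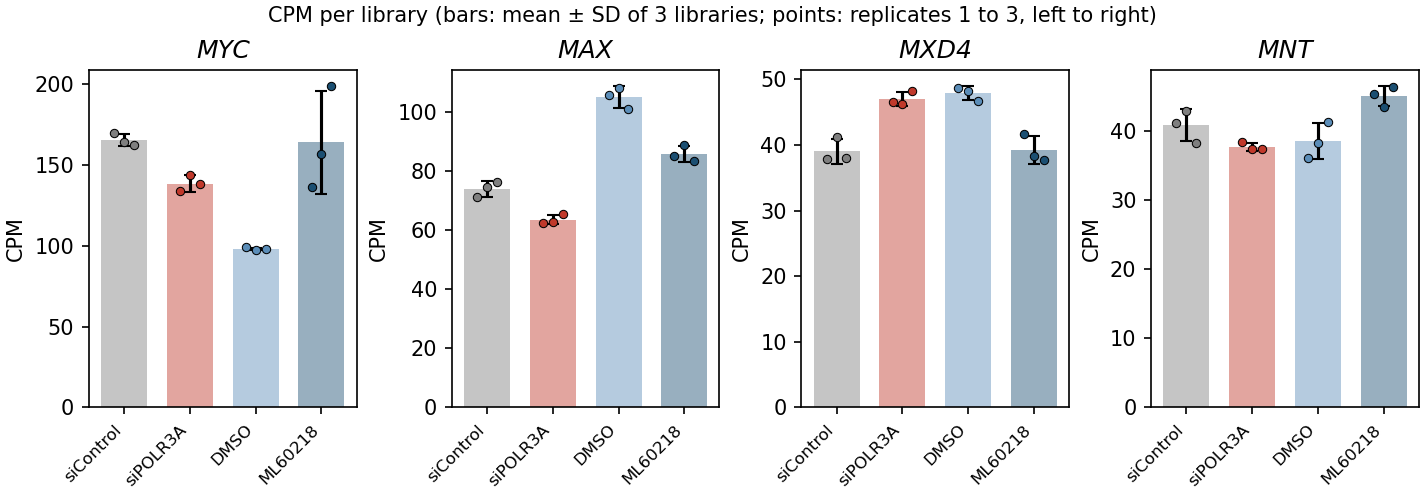
CPM of MYC, MAX, MXD4 and MNT in every library, with bars for the mean ± SD of 3 libraries and axes from 0. CPM were scaled within each experiment. MYC ranges from 136.5 to 198.7 in ML60218 against 97.3 to 99.0 in DMSO, while MAX and MXD4 are lower in ML60218 than in DMSO.

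The other members did not pass the test with ML60218. MGA was at 23.8, 22.2 and 21.8 CPM in DMSO and at 26.6, 31.9 and 43.8 CPM in ML60218. Its libraries did not overlap, replicate 3 was the highest as for MYC, and MGA differed by 0.60 on the log2 scale (SE 0.197, adjusted p = 0.0667). With neighbouring transcripts added the MGA difference was 0.19 (adjusted p = 0.201). MXD3 was -0.21 (adjusted p = 0.0575) without overlap, MXD1 0.10 (adjusted p = 0.249) and MXI1 0.07 (adjusted p = 0.600). With its neighbouring transcripts MXI1 was 0.17 (adjusted p = 0.00433).

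The members' responses to the siRNA and to the compound were compared directly by fitting the 12 libraries together and subtracting the ML60218 effect from that of siPOLR3A. The difference passed the test for 6 of the 10 members, against 50.9% of the 15780 genes tested. It was positive for 3 of them and negative for 3 (24.5% and 26.4% of all genes). It was -0.996 for MYC (SE 0.161, adjusted p = 0.000706), 0.56 for MXD4 (SE 0.0622, adjusted p = 1.85e-06) and -0.33 for MNT (SE 0.0719, adjusted p = 0.00113). MXD3 at 0.38, MXD1 at 0.23 and MGA at -0.70 also passed, with adjusted p = 0.00343, 0.0221 and 0.0237. The MXD3 difference turned to -0.094 with the isoform-length offset. For MGA, the transcript MGA-201 averaged 14.04 CPM in siControl, 4.075 in siPOLR3A, 0.543 in DMSO and 9.705 in ML60218. Its division from other MGA transcripts is uncertain, as described below, and the MGA difference was not tested without it. MYC and MXD4 kept the call under all 20 alternatives. With the isoform-length offset 2 of the 10 members passed, a count given without the share of all genes under that setting.

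The separate tests called 4 members in both experiments, against 26.2% of the 15165 genes tested in both. MYC, MXD4 and MNT, 3 of the 10 members, were called in opposite directions, against 13.9% of all genes. With 10 members these shares are a description only. The MNT call after the siRNA had overlapping libraries and was lost in 11 of 18 alternatives. MAX fell in both, by 0.22 and 0.29, and the difference between those effects was 0.08 (SE 0.0538, adjusted p = 0.267), which misses the threshold and does not show them to be equal.

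The members' transcripts were tested one by one among all transcripts, with the caution that the uncertainty of dividing reads among overlapping transcripts is not in this test. Of the 82 transcripts of the 10 genes, 42 could be tested after the siRNA and 3 passed, against 11.3% of all transcripts tested. With ML60218, 45 could be tested and 1 passed, against 2.09%.

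MAX-204, the form without exon 2, was at 27.0, 27.96 and 30.3 CPM in siControl and 18.7, 21.3 and 16.9 CPM in siPOLR3A. It fell by 0.58 on the log2 scale (SE 0.0976, adjusted p = 0.0169). MAX-205, the form with the exon printed above, was at 25.1, 28.2 and 27.2 CPM in siControl and 27.9, 25.2 and 29.5 CPM in siPOLR3A, with overlapping libraries and a log2 fold change of 0.04 (adjusted p = 0.836). MAX-205 made up 47.4%, 49.4% and 46.6% of the summed TPM of the pair in siControl and 59.2%, 53.4% and 62.8% in siPOLR3A. The share was higher in every siPOLR3A library, by 10.7 percentage points (exact permutation test, two-sided p = 0.1, the smallest that 3 against 3 can give).

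With ML60218 both MAX forms were lower in each library than in any DMSO library, with log2 fold changes of -0.40 for MAX-204 (adjusted p = 0.0823) and -0.44 for MAX-205 (adjusted p = 0.067), and neither passed. The share of MAX-205 was 55.3% ± 1.90 in DMSO and 54.5% ± 3.99 in ML60218 (SD, n = 3), with overlapping libraries.

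**Figure D4:**
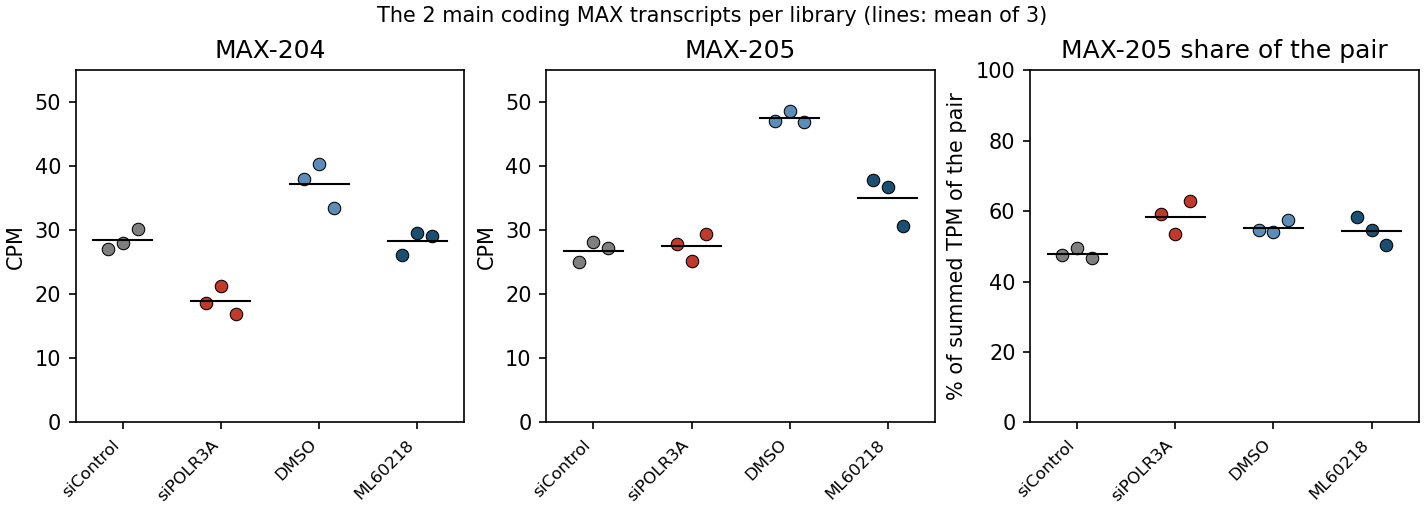
CPM of MAX-204 and of MAX-205, and the percentage of their summed TPM that belonged to MAX-205, one point per library with a line at the mean of 3. After POLR3A siRNA the MAX-204 points lie at 16.9 to 21.3 CPM against 27.0 to 30.3 in siControl, and the share of MAX-205 lies above that of siControl, while in ML60218 the share overlaps that of DMSO.

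MXI1-202 made up 76.6%, 71.0% and 77.2% of the summed TPM of MXI1-202 and MXI1-201 in siControl and 67.6%, 59.2% and 68.2% in siPOLR3A. These shares leave out the 28 unmatched transcripts at the locus, so they describe this pair and not the whole of MXI1. The longer form thus had a lower share in every siPOLR3A library, a difference of -9.97 percentage points (exact permutation p = 0.1, two-sided), while neither transcript passed its own test (adjusted p = 0.269 and 0.264). In the second experiment the share was 65.8% ± 5.55 in DMSO and 70.0% ± 7.43 in ML60218, with overlap.

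MYC reads came mainly from MYC-202 and MYC-205, which carried 67.9% and 26.3% of the MYC TPM in siControl. With ML60218 both were higher in each library, by 0.71 for MYC-202 (adjusted p = 0.0708) and 0.85 for MYC-205 (adjusted p = 0.0768). The share of MYC-202 in the pair was 79.1% ± 1.85 in DMSO and 77.5% ± 0.410 in ML60218 and overlapped. After the siRNA their differences were -0.22 (adjusted p = 0.0743) and -0.44 (adjusted p = 0.0721), and neither passed.

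Single transcripts of the repressors also passed. MXD3-202 rose by 0.76 after the siRNA (adjusted p = 0.0124), from 3.05 to 5.18 CPM on average, and MXD1-206 by 0.78 (adjusted p = 0.0215), from 1.84 to 3.17 CPM. MXD4-201, the main coding transcript of MXD4, fell by 0.40 with ML60218 (adjusted p = 0.0318), from 32.4, 31.2 and 31.5 CPM to 24.7, 24.6 and 23.0 CPM. Leaving out any 1 library of that experiment ended this call, and without siControl replicate 2 or 3 a single transcript (1) passed after the siRNA in place of 3. The MGA transcript MGA-201 was listed at 0 CPM in 4 libraries (siPOLR3A replicate 1, DMSO replicates 1 and 3, ML60218 replicate 1) and at 1.63 to 16.7 CPM in the others, so its division from other MGA transcripts is uncertain.

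The pathway around the members was read from lists of textbook genes. Of 39 MYC-induced genes, 36 could be tested. After the siRNA 15 rose and 15 fell, with a median log2 fold change of 0.04 (0.01 over all genes), against 27.4% and 29.2% of all genes called higher and lower. With total-count or upper-quartile scaling 19 were higher and 13 lower, but the median over all genes then moved up too, to 0.055 and 0.065. NME1 and IMPDH2, a guanine nucleotide synthesis enzyme, fell by 1.77 and 1.08, while CAD, which starts pyrimidine synthesis, rose by 0.39 (each adjusted p under 0.05). TERT, the telomerase catalytic subunit, rose by 1.05 from a low level of 1.54 ± 0.625 to 3.18 ± 0.399 CPM. Genes with the hexamer in a promoter window were called 8 higher and 6 lower of 16 tested, and those without it 5 and 5 of 14. Many listed genes had high counts, such as NPM1 at 3299 CPM in siControl, whereas all genes tested reach down to the count filter. In neither experiment were the shares of all genes matched for level.

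With ML60218, in which MYC itself rose, 4 of the 36 MYC-induced genes rose and 18 fell, with a median of -0.12 (0.01 over all genes), against 18.1% and 20.9% of all genes. TFRC, the transferrin receptor, fell by 0.78 from 439.2 ± 4.70 to 255.5 ± 33.0 CPM, and HSPE1, a mitochondrial chaperonin, by 0.65. ODC1, the first enzyme of polyamine synthesis, and SLC7A5 each rose by 0.20. By scaling, the split was 7 higher and 12 lower with total counts, and 7 and 15 with upper quartiles. The median over all genes was then 0.076 and 0.045. Genes with the hexamer were called 2 higher and 10 lower of 16 tested, and those without it 1 and 7 of 14.

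The 9 MYC-repressed genes divided too. CDKN1B, a cyclin-dependent kinase inhibitor, rose by 0.75 after the siRNA and ITGB1, an integrin chain, fell by 0.53. They were among 2 called higher and 4 lower, against 27.4% and 29.2% of all genes. With ML60218 the DNA damage response gene GADD45A rose by 0.76 and NDRG2 fell by 0.19, among 3 higher and 2 lower, against 18.1% and 20.9% of all genes. With 9 genes these counts are a description only.

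**Figure D5:**
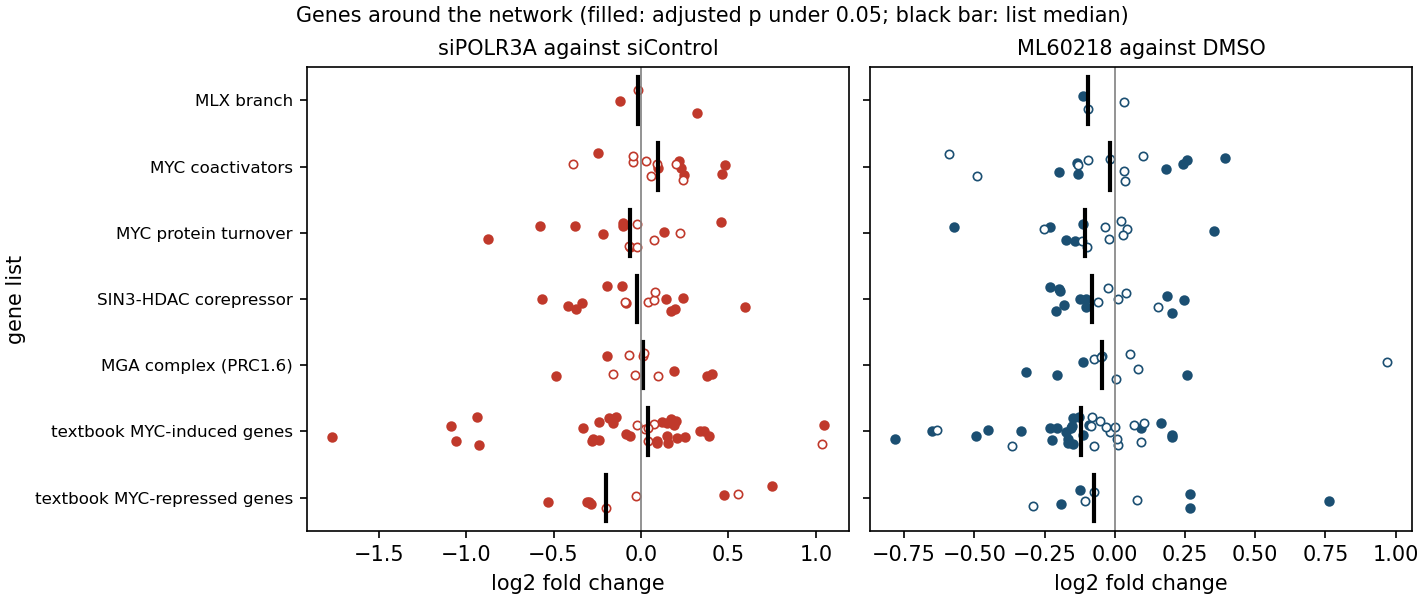
Log2 fold change of each tested gene in the lists around the network, after POLR3A siRNA (left) and with ML60218 (right), filled where the adjusted p was under 0.05, with a black bar at the list median. The MYC-induced genes spread on both sides of 0 after the siRNA (15 higher, 15 lower) and lie mostly below 0 with ML60218 (4 higher, 18 lower).

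Cofactors of the members were also tested. Their counts are read against the 27.4% of all genes called higher and 29.2% called lower after the siRNA, and the 18.1% and 20.9% with ML60218. Of 15 MYC coactivator genes 6 rose and 1 fell after the siRNA, led by CDK9 at 0.48, the kinase that releases paused RNA polymerase II, with ACTL6A at -0.25. With ML60218 4 rose, led by the adaptor TRRAP at 0.39, and 3 fell, led by WDR5 at -0.20. All list counts rest on matched transcripts. The share of reads left out was worked out only for MXI1, MGA, MYC and MAX. RUVBL1, counted as not called, averaged 1.735 CPM in siControl, against 119.0 CPM for RUVBL2. Of 14 genes for MYC protein turnover 2 rose and 7 fell after the siRNA, with the ubiquitin ligase STUB1 at 0.46, and 1 rose and 5 fell with ML60218, the ubiquitin ligase HUWE1 at 0.35 and the kinase AURKA at -0.57.

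Of 16 SIN3 and histone deacetylase genes, through which the MXD proteins and MNT repress, 5 rose and 7 fell after the siRNA, with SIN3B at 0.60 and NCOR1 at -0.56. With ML60218 3 rose and 8 fell, with ARID4A at 0.25 and SAP18 at -0.23. Of 11 partners of MGA in PRC1.6, 3 rose and 2 fell after the siRNA, TFDP1 at 0.41 and CBX1 at -0.48, and 1 rose and 3 fell with ML60218, PCGF6 at 0.26 and TFDP1 at -0.32. In the parallel MLX branch, MLXIP (MondoA) rose by 0.32 and MLX fell by 0.12 after the siRNA, and MLXIP fell by 0.11 with ML60218. These splits depended on the scaling: with upper quartiles after the siRNA they were 8 higher and 1 lower for coactivators, 3 and 4 for turnover, 6 and 5 for SIN3 and deacetylase genes, 6 and 2 for PRC1.6 and 1 and 0 for the MLX branch. With ML60218 they were 4 and 2, 1 and 4, 3 and 4, 1 and 2, and 0 and 0 in the same order. The scaling moved all genes and not these lists in particular. With upper quartiles the median over all genes was 0.065 after the siRNA and 0.045 with ML60218, against 0.005 in each main fit. The shares of all genes called with upper quartiles are not given here.

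The genes whose profile over the 12 libraries lay nearest to that of MYC were found by the root mean square difference of log2 CPM after subtracting each experiment's control mean, over 10289 protein-coding genes. They were GZF1 (0.0702), TIGD6 (0.0757), ANKRD33B (0.0772), RPS6KL1 (0.0926) and PTCD2 (0.0929), against a median of 0.442. GZF1, a zinc finger gene, fell by 0.34 after the siRNA and rose by 0.75 with ML60218, beside -0.26 and 0.74 for MYC. These genes were picked for their nearness to MYC in the same libraries, so the likeness follows from the choice.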

How the data were processed

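Strand-specific libraries were sequenced from 12 samples, 3 in each of 4 groups, and groups and replicate numbers come from the sample titles. The authors deposited, per the file headers, 1 table with an estimated count and a TPM value for each of 194142 transcripts and each library, no sample column was left unused (0), and the submitters' processing notes name bcl2fastq 2.20, Trim Galore, DESeq2 and the build hg38. The quantifier's version, settings and transcript release are not given in the sources used here. Transcripts were assigned to genes by stable identifier in GENCODE 29 (81.6% of transcripts); the others, with 8.37% to 8.97% of reads, stayed out of library sizes and tests.

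The deposited estimated counts of a gene's transcripts were added and then rounded, a step the design had not foreseen, since it assumed gene counts. Both comparisons used edgeR 4.0.16 (R 4.3.3) on the 6 libraries of that experiment: filterByExpr (minimum count 10, minimum total 15), TMM scaling, robust two-sided quasi-likelihood test, Benjamini-Hochberg over all genes, threshold 0.05. The SE is the log2 fold change divided by the square root of F. CPM are on the TMM scale of their experiment, and TPM sums from the deposited TPM values compare genes. Transcripts were fitted in the same way. An exact permutation test of 3 against 3 cannot go below 0.1. The fitting was also run on simulated data, and its outcome is not given here. In that run few genes changed, by larger sizes than most member differences, so it does not bear on the member calls. Alternatives used other scalings, filters, DESeq2 1.42.0, limma 3.58.1 (voom, and log2(TPM + 0.1)), an isoform-length offset, neighbouring unmatched transcripts, a replicate block and each library left out.

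The members and lists were chosen with earlier results of these data known. All 10 members are named; of each other list, the called gene with the largest rise and fall per comparison (2 each for MYC-induced genes); the 5 genes nearest to MYC in profile whose log2 CPM averaged 3 or more; and transcripts reaching 1 TPM in some group. A gene that this rule names is not reported here. MXD1-206, which does not reach 1 TPM, was named after its value was seen, as were the isoform pairs whose shares are given. LDHA, FBL and BOP1 of the MYC-induced list matched no transcript and were not used here.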

Additional observations from a re-analysis of the deposited data

Results flagged for a closer look

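For 6 of the 10 members, against 50.9% of all genes tested, the effect of POLR3A siRNA differed from that of ML60218 in the test of the difference itself, fitted over all 12 libraries (edgeR quasi-likelihood test, n = 3 per group, log2 scale, ML60218 effect subtracted). The difference was -0.996 for MYC, whose 3 siPOLR3A libraries were lower than their controls and whose 3 ML60218 libraries were higher. It was -0.70 for MGA and -0.33 for MNT, which was also called in opposite directions. It was 0.56 for MXD4, higher in all 3 siPOLR3A libraries and lower in all 3 ML60218 libraries, 0.38 for MXD3 and 0.23 for MXD1. The MGA difference missed the threshold in 7 of 20 alternatives and the MXD1 difference in 6. By its means MGA-201, an uncertainly divided transcript, was lower in siPOLR3A than in siControl and higher in ML60218 than in DMSO. The MXD3 difference turned to -0.094 with the isoform-length offset. The MNT call after the siRNA was lost in 11 of 18 alternatives. Agent, time and control differ between the experiments and cannot be told apart.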

How the results depend on the processing

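Of the results recomputed under the alternatives, 488 values kept their direction and side of the threshold, 39 lost the call, 19 gained it and 14 changed sign. The sign changes were, on the log2 scale: after the siRNA MXD3 (-0.25), MXI1 (0.021) and MGA (0.006) with the isoform-length offset; MXD3 (-0.21), MXI1 (0.059), MGA (0.048) and MNT (0.022) on log2 TPM; MYCL with upper-quartile (0.019) and total-count (0.009) scaling; with ML60218 MXD3 on log2 TPM (0.003) and MXI1 with a library left out (-0.013 to 0.151, below 0 without DMSO replicate 1 or ML60218 replicate 3); and, for the difference between effects with the offset, MAX (-0.11) and MXD3 (-0.094). With ML60218 7 members were called in one fit of 12 libraries and 2 on log2 TPM, and 3 to 7 with a library left out (7 without ML60218 replicate 1). The difference was called for 2 members with the offset. Transcript calls after the siRNA were 6 at a minimum count of 50 and 1 to 3 with a library left out, and with ML60218 4 and, with any library left out, 0. The labels do not say whether same-numbered libraries were handled as pairs. Deviations of same-numbered libraries from their group means correlated at -0.19 to 0.05, and those of differently numbered ones at -0.15 to 0.25. This cannot decide the pairing, because the deviations of 3 libraries from their own mean are tied to each other. The replicate block left 5 members called in the siRNA experiment, 4 with ML60218 and 0 transcripts in both. The cause of these changes was not tested. The shares of all genes and transcripts called under each setting are not given here, so these counts describe the settings and are not results about the members. MYCN was the lowest member, at 0.885 to 2.65 CPM, where few reads limit the precision.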
